A study of Mus musculus with 12 samples.

Results

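The collagen chain genes were examined in mouse medulloblastoma, a tumour of the cerebellum, at end point. A gene was taken as a member when its name was Col, a number, the letter a and a number, which gave 42 of the 15672 genes in the deposited table. RNA was measured by bulk RNA sequencing in 12 libraries, numbered 1 to 12, with 3 in each of 4 groups. SG males (1 to 3) and SG females (4 to 6) carried fSMO-M2, a conditional allele that activates Hedgehog signalling through Smoothened, together with hGFAPcre. YSGr males (7 to 9) and YSGr females (10 to 12) carried the same alleles and fYap1, a conditional allele of the Hippo pathway coactivator Yap1. All 12 libraries thus shared the activated Smoothened and the Cre recombinase, and Yap1 was the difference in genotype. The labels call YSGr rescued and do not say what was rescued, and they give no age. The human GFAP promoter, which drives Cre in neural stem and progenitor cells and in astroglia, limits where recombination could occur, and the labels do not give the cells in which it took place. The labels do not tie the libraries to separate animals, so the p-values rest on variation among these libraries, some of which may be technical. In bulk RNA, fewer cells of a type and less RNA per cell cannot be told apart.

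Collagens are extracellular proteins whose chains wind into triple helices. Fibrillar collagens form the fibrils of connective tissue, and type IV collagen forms the sheet-like network of basement membranes. FACIT collagens, short for fibril-associated collagens with interrupted triple helices, sit on the surface of fibrils. The remaining collagens include the multiplexins of basement membranes, beaded filament collagens, network formers, anchoring fibrils and transmembrane collagens. In the brain, collagen is found mainly around blood vessels and in the meninges, and neural tissue itself contains little fibrillar collagen. A chain is made in the endoplasmic reticulum, where hydroxylases, glycosyltransferases and chaperones act on it, and is trimmed and crosslinked outside the cell.

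The libraries held 8854764 to 9478647 estimated reads, and 1 read was worth 0.1003 to 0.111 CPM, the reads of a gene scaled to a common library size. Yap1 had 211, 174 and 201 estimated reads in SG males, 205, 208 and 253 in SG females, 33, 29 and 14 in YSGr males and 9, 12 and 7 in YSGr females. Its level fell by 3.64 on the log2 scale (SE 0.20, limma adjusted p = 1.132e-06), and every YSGr library was below every SG library. All 10 markers of granule neuron progenitors, the cells of origin of Hedgehog-driven medulloblastoma, passed the filter on low values, and they summed to 4978 to 5962 CPM in SG and 3980 to 6591 CPM in YSGr. Averaged over the sexes, 3 of these markers fell and 1 rose at an adjusted p under 0.05 in limma, where 5.27% of all genes fell and 6.16% rose. In a principal component analysis, YSGr male 8 stood apart on the first component (38.3% of the variance) and SG male 2 on the third (12.3%). On the second (18.0%), YSGr females 10 and 12 stood at -42.52 and -45.49, against -14.28 to 34.12 in the other libraries. On the first, YSGr female 12 (-23.53) lay within the range of the SG libraries (-44.51 to -12.33). Values without YSGr male 8, SG male 2 or both are given for several results that shifted.

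The 42 members comprised 11 fibrillar genes, 6 basement membrane genes, 9 FACIT genes and 16 other genes. A gene was tested if its log2 CPM was above 0 in at least 3 of the 12 libraries, a filter passed by 39 members and 14147 genes in all. Col6a5, with 0 to 5 estimated reads per library, Col10a1, with 0 to 2, and Col14a1, with 1 to 10, did not pass. Col6a4 and Col6a6 were absent from the deposited table. Ordered by their mean CPM per kilobase of their longest transcript, the highest levels in SG were those of Col4a1 (36.8), Col9a3 (21.0), Col18a1 (16.9), Col4a2 (16.2) and Col3a1 (12.0). Thus 3 of the 5 chains with the highest levels belonged to basement membrane or multiplexin collagens, and the fibrillar Col1a1 (4.65) and Col1a2 (6.09) stood lower.

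Some members lie beside another member in the genome, and these arrangements are shown because the neighbours could share control sequence. Coordinates are from GENCODE M21 on the mm10 build. Col4a1 (chromosome 8, 11198423 to 11312826, minus strand) and Col4a2 (chromosome 8, 11312805 to 11449287, plus strand) are transcribed away from each other, and their first exons overlap by 22 bases. Because the use of strand in counting is not given in the sources used here, reads from those 22 bases could have been given to either gene. The mm10 sequence at chr8:11312801-11312830 is printed on the plus strand, with the 22 bases between the starts in capitals.
Col4a1 and Col4a2 starts: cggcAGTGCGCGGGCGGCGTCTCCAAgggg
Col4a3 and Col4a4 also start head to head on chromosome 1, 71 bases apart, and so do Col4a5 and Col4a6 on chromosome X, 1308 bases apart. Col3a1 (45311538 to 45349706) and Col5a2 (45374321 to 45503282) lie tail to tail on chromosome 1 with 24614 bases between them.

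Promoter windows of 250 bases before a start were read from RefSeq sequence on the GRCm38 build, with 36 windows for 33 members. Printed here are those of members that passed the averaged test below, with a fall of more than 1 on the log2 scale, and whose window holds no annotated exon. Col5a2 and Col26a1 passed with falls of more than 1 as well, but had no window and were not searched. Col7a1 and Col6a3 also had averaged values below -1 and windows free of exons, but did not pass, so their windows are not printed. The Col7a1 window held a CCAAT box and a GC box, and the Col6a3 window none of the motifs. The Col3a1 window is chr1:45311288-45311537 (plus strand), the Col15a1 window chr4:47207762-47208011 (plus strand) and the Col28a1 window chr6:8192618-8192867 (minus strand). Capitals mark matches on either strand to any of 4 motifs. The first is the core recognised by TEAD factors, through which Yap1 reaches DNA, and it reads GGAATG. The second is the TATA box with the letters TATAAA, which positions the transcription machinery. The remaining motifs are common promoter elements, the CCAAT box as it is named and the GC box, spelled GGGCGG and bound by Sp factors.
Col3a1: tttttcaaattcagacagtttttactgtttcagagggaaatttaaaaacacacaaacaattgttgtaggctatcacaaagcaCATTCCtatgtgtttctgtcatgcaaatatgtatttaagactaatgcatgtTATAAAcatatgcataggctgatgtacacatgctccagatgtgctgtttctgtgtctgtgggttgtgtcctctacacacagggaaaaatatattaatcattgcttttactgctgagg
Col15a1: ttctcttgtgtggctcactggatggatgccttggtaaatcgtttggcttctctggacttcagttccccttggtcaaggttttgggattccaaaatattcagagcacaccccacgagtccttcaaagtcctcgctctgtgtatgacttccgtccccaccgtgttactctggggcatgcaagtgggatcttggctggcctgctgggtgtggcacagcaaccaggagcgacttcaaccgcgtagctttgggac
Col28a1: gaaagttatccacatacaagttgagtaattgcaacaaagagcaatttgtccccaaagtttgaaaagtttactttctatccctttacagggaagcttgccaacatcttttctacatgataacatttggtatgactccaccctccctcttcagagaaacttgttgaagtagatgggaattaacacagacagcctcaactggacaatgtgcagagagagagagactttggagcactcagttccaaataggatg
The Col3a1 window held a match to the TEAD core and a match to the TATA box, which did not overlap, and the other windows printed held no match. The TEAD core was found in 4 of the 36 collagen windows (11.1%, for Col3a1, Col20a1, Col6a2 and Col18a1) and in 12.6% of all 32851 RefSeq windows of the same length. The TATA box was in 13.9% of the collagen windows and 12.4% of all windows, and the CCAAT box in 33.3% and 33.8%. The GC box was in 55.6% of the collagen windows and 32.7% of all windows. These matches describe letters in a window and no binding was measured.

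Averaged over the sexes, 13 of the 39 collagens tested were lower in YSGr than in SG and 1 was higher, at an adjusted p under 0.05. Of all 14147 genes tested, 5.27% were lower and 6.16% higher by the same rule, 11.4% in all. The median log2 fold change was -0.67 over the collagens and -0.01 over all genes, and 28 collagens had a negative value. The 13 that fell were 4 of 11 fibrillar genes (Col2a1, Col3a1, Col5a2, Col27a1), 3 of 6 basement membrane genes (Col4a1, Col4a2, Col4a5), 2 of 8 FACIT genes (Col9a1, Col9a3) and 4 of 14 other genes (Col15a1, Col18a1, Col26a1, Col28a1). The FACIT gene Col20a1 was the member that rose. In 7 members, all lower in YSGr, no YSGr library reached the lowest SG library (Col3a1, Col4a1, Col4a2, Col5a2, Col9a3, Col18a1 and Col26a1). Of all genes tested, 2.96% were lower without overlap and 2.93% higher. When libraries were weighted by their scatter about the group means, 28 collagens were called, against 14 with equal weights. The share of all genes called rose alongside from 11.4% to 35.2%.

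**Figure D1:**
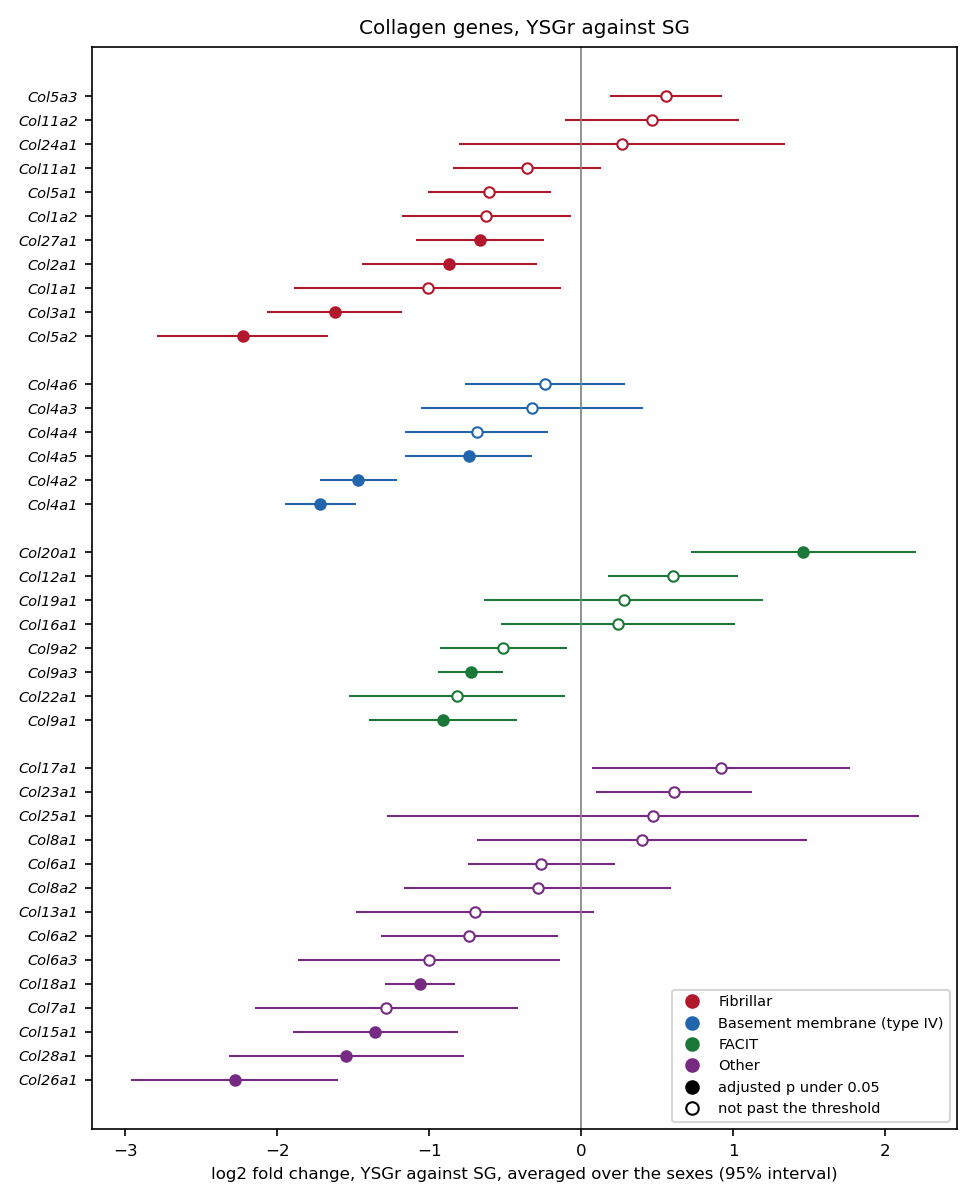
Log2 fold change of the 39 collagen genes tested, YSGr against SG averaged over the sexes, with 95% confidence intervals from limma and the genes ordered within each class. Filled points passed an adjusted p under 0.05: 13 lie left of 0 and Col20a1 lies right of it, and all 6 basement membrane points lie left of 0.

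The ubiquitous type IV chains, Col4a1 and Col4a2, which assemble together into the basement membrane network of vessels, fell in both sexes. Col4a1 was at 7.69, 7.58 and 7.79 log2 CPM in SG males, 7.81, 8.18 and 8.37 in SG females, 6.13, 5.99 and 6.03 in YSGr males and 6.24, 6.21 and 6.50 in YSGr females. The genotypes were separated by more than 1 log2 unit, and the libraries of each YSGr group lay close together. Its mean CPM was 3.34 times as high in SG as in YSGr, and its log2 fold change was -1.72 (SE 0.11, limma adjusted p = 1.935e-06). Col4a2 was at 6.44, 6.41 and 6.58 log2 CPM in SG males, 6.68, 6.92 and 7.08 in SG females, 5.03, 5.48 and 4.92 in YSGr males and 5.24, 5.32 and 5.33 in YSGr females. YSGr male 8 was the highest of the YSGr libraries and still below each SG library. The log2 fold change of Col4a2 was -1.47 (SE 0.11, limma adjusted p = 1.547e-05), and the ratio of mean CPM was 2.79.

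The other type IV chains, which form networks in a narrower set of tissues such as the kidney, had lower levels per kilobase (Col4a5, the highest of them, had 2.64 CPM per kilobase in SG) and values closer to 0. Col4a5 was at 4.12, 3.00 and 4.16 log2 CPM in SG males, 4.20, 4.53 and 4.31 in SG females, 3.65, 3.50 and 3.51 in YSGr males and 2.96, 3.23 and 3.02 in YSGr females. SG male 2 lay below most YSGr libraries, and the rest of the SG libraries lay above all of them. Col4a5 fell by 0.74 on the log2 scale (SE 0.19, limma adjusted p = 0.0240), a call lost when SG male 1, SG male 3, SG female 5, SG female 6 or YSGr female 10 was left out (adjusted p 0.0544 to 0.0701). Its X-linked head-to-head neighbour Col4a6 was at 0.99 to 2.01 log2 CPM in SG and 0.44 to 1.82 in YSGr (log2 fold change -0.24, 95% interval -0.76 to 0.28). Col4a4 was at 0.91 to 1.97 log2 CPM in SG and 0.27 to 1.59 in YSGr, with a log2 fold change of -0.69 (adjusted p = 0.0563). It passed the threshold without SG male 2 (adjusted p = 0.0179) or without YSGr female 11 (0.0318). Col4a3, with 1 to 13 estimated reads per library, had a log2 fold change of -0.32 (95% interval -1.05 to 0.40).

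The multiplexins Col15a1 and Col18a1, which link basement membranes to the matrix beneath, both fell. Col18a1 was at 6.40, 6.52 and 6.35 log2 CPM in SG males, 6.81, 6.69 and 6.56 in SG females, 5.67, 5.45 and 5.43 in YSGr males and 5.42, 5.73 and 5.25 in YSGr females. The genotypes did not overlap, and the fall was 1.06 on the log2 scale (SE 0.10, limma adjusted p = 7.1e-05). Col15a1 was at 4.45, 4.23 and 4.73 log2 CPM in SG males, 4.75, 5.25 and 5.45 in SG females, 3.71, 4.26 and 2.68 in YSGr males and 3.07, 3.15 and 3.86 in YSGr females. YSGr male 8, at 4.26, overlapped the lowest SG library. Col15a1 fell by 1.36 (SE 0.25, limma adjusted p = 0.00432), and by 1.53 without YSGr male 8.

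Some markers of vessel cells were also lower in YSGr, and others were not. The 10 endothelial markers summed to 150.84 to 223.24 CPM in SG and 101.99 to 194.24 CPM in YSGr, and 4 of 10 fell, Kdr by 1.55 and Cldn5 by 1.11 among them, where 5.27% of all genes fell. Slc2a1, Emcn, Flt1 and Egfl7 had log2 fold changes of 0.02, -0.08, -0.24 and -0.25, none past the threshold. The 10 mural cell markers summed to 185.72 to 239.98 CPM in SG and 122.29 to 205.91 CPM in YSGr, and 4 of the 9 tested fell, Pdgfrb by 1.09 among them, while Rgs5 had a value of 0.14 (adjusted p = 0.456). The sums of both lists overlapped between the genotypes. YSGr male 8 had the highest sum of both lists within YSGr (194.24 and 205.91 CPM). The part of these markers in the collagen results was not tested.

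**Figure D2:**
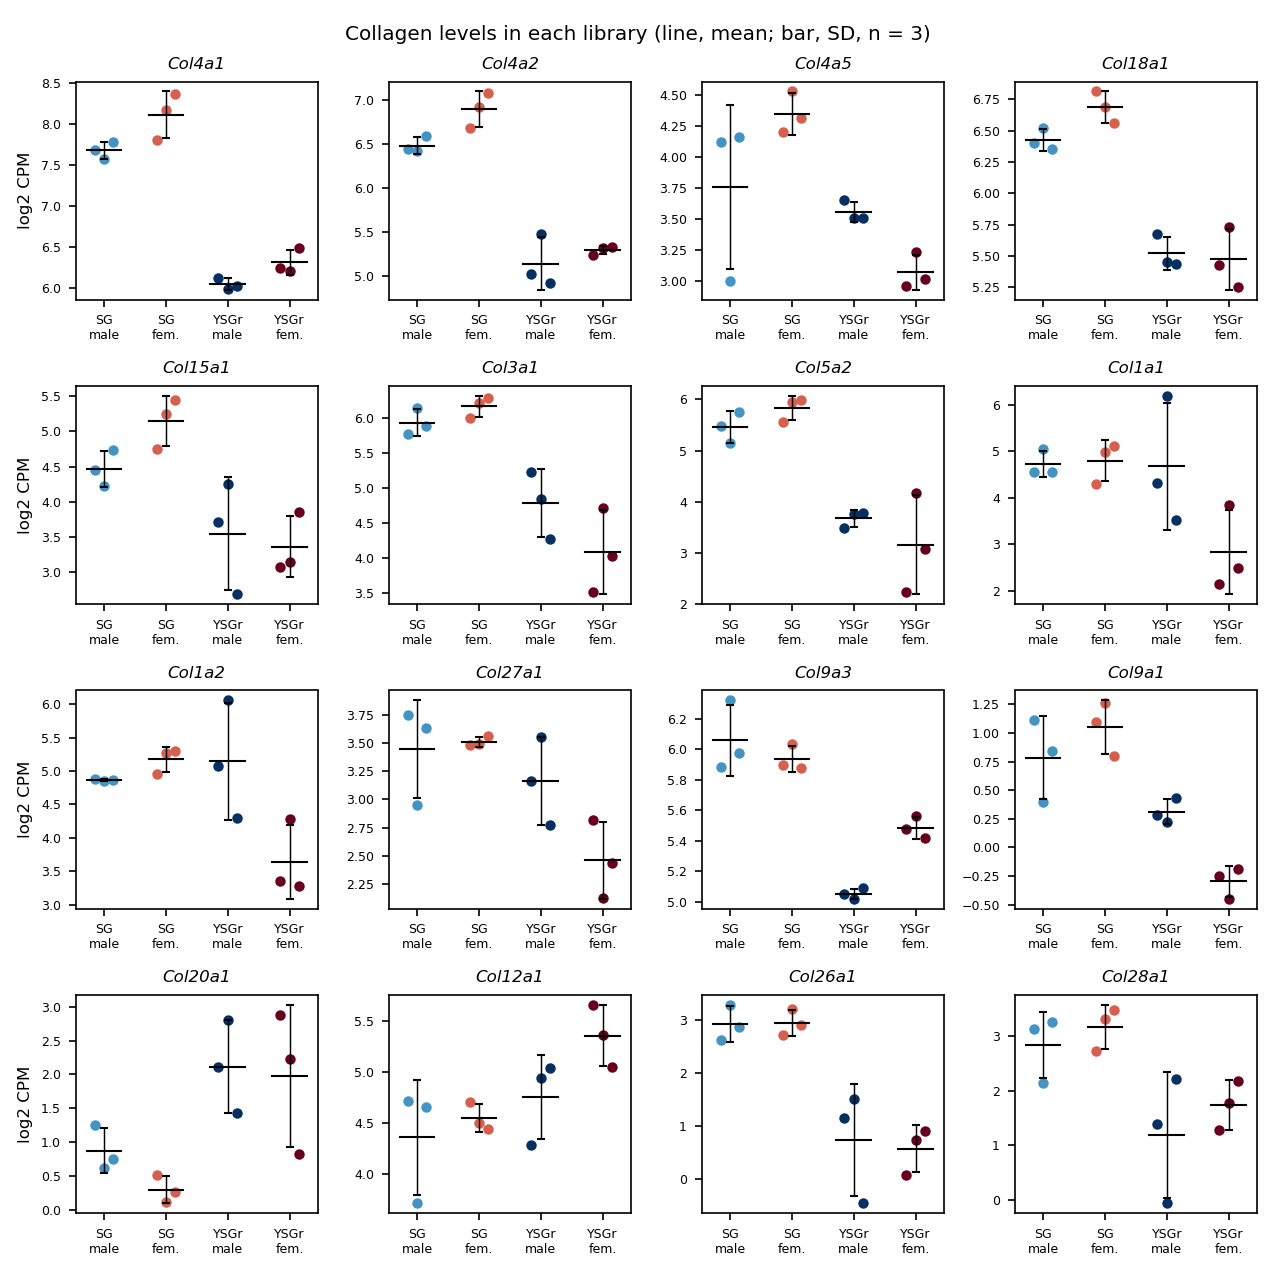
Log2 CPM of 16 collagen genes in each library, by genotype and sex (points, libraries; line, mean; bar, SD, n = 3). Col4a1, Col4a2, Col18a1, Col3a1, Col5a2, Col9a3 and Col26a1 show no overlap between SG and YSGr, while YSGr male 8 lies above the SG libraries for Col1a1 (6.19) and Col1a2 (6.06).

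Among fibrillar genes, Col5a2 and Col3a1 fell furthest. Col3a1, the sole chain of type III collagen of vessel walls and soft tissue, was at 5.77, 6.15 and 5.89 log2 CPM in SG males, 6.00, 6.23 and 6.29 in SG females, 5.24, 4.84 and 4.27 in YSGr males and 3.50, 4.71 and 4.03 in YSGr females. Each YSGr library lay below each SG library, and the YSGr libraries were spread over a wider range. The fall was 1.62 on the log2 scale (SE 0.20, limma adjusted p = 0.00042). Col5a2, a chain of type V collagen, which nucleates fibrils, was at 5.48, 5.14 and 5.76 log2 CPM in SG males, 5.56, 5.94 and 5.99 in SG females, 3.48, 3.76 and 3.78 in YSGr males and 2.24, 4.18 and 3.07 in YSGr females. It fell by 2.23 (SE 0.26, limma adjusted p = 0.000232), with 4.46 times the mean CPM in SG. Its partner Col5a1 was at 2.83 to 3.69 log2 CPM in SG and 2.03 to 3.40 in YSGr, and its log2 fold change was -0.61 (adjusted p = 0.0511), past the threshold without YSGr male 7 (0.0295) or YSGr female 12 (0.0267). Col5a3, the third type V chain, had a positive value of 0.55 (adjusted p = 0.0503), past the threshold without YSGr male 9 (0.0442) or YSGr female 12 (0.0205).

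The type I chains, which make the main collagen of bone, skin and tendon, varied widely among the YSGr libraries, with an SD within a sex of 1.16 log2 units for Col1a1 and 0.73 for Col1a2. Col1a1 was at 4.56, 5.06 and 4.57 log2 CPM in SG males, 4.29, 4.99 and 5.11 in SG females, 4.31, 6.19 and 3.52 in YSGr males and 2.14, 3.86 and 2.50 in YSGr females. YSGr male 8 was the highest of all 12 libraries, and the 3 YSGr females were below every SG library. The averaged log2 fold change of Col1a1 was -1.01 (SE 0.40, limma adjusted p = 0.121), and -1.39 without YSGr male 8 (adjusted p = 0.0124). Col1a2 was at 4.87, 4.85 and 4.87 log2 CPM in SG males, 4.96, 5.26 and 5.31 in SG females, 5.08, 6.06 and 4.30 in YSGr males and 3.36, 4.28 and 3.29 in YSGr females. The SG libraries lay within a narrow band, which YSGr libraries left on both sides. The averaged log2 fold change of Col1a2 was -0.63 (SE 0.26, limma adjusted p = 0.128), and -0.85 without YSGr male 8 (adjusted p = 0.0185). Markers of fibroblasts and meninges summed to 438.41 to 650.12 CPM in SG and 354.85 to 570.42 CPM in YSGr, with 392.94 CPM in YSGr male 8. In every YSGr library Pdgfra had the most estimated reads of this list (1856 to 4206), so the YSGr sums largely follow that gene. In SG, Pdgfra had 1505 to 2960 reads and Igf2 1689 to 2434, against 283 to 977 for Igf2 in YSGr. The sums of the genotypes thus rest on different genes, and their overlap does not show equal numbers of these cells. YSGr male 8 had the fewest Pdgfra reads of the YSGr libraries (1856) and the most Igf2 reads (977). Of the 9 markers tested, Dcn rose and Igf2 fell. Their part in the type I and type III results was not tested.

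The remaining fibrillar genes belong mainly to cartilage collagens. Col2a1, the chain of cartilage type II collagen, was at 1.39 to 2.36 log2 CPM in SG and -0.38 to 1.63 in YSGr, and its fall of 0.87 (SE 0.26, limma adjusted p = 0.0498) lay at the threshold. That call was lost when any library but YSGr female 10 or YSGr female 11 was left out (adjusted p 0.0562 to 0.114). Col27a1 was at 2.95 to 3.75 log2 CPM in SG and 2.13 to 3.56 in YSGr, and fell by 0.67 (SE 0.19, limma adjusted p = 0.0401). Its call was lost when any library but SG male 2, YSGr male 8 or YSGr female 10 was left out (adjusted p 0.0543 to 0.0979). Col11a1, the highest of the cartilage chains per kilobase (4.89 CPM per kilobase in SG), was at 4.59 to 5.57 log2 CPM in SG and 4.01 to 5.26 in YSGr, with a log2 fold change of -0.36 (95% interval -0.84 to 0.13). Col11a2 and Col24a1 had values of 0.46 (adjusted p = 0.264) and 0.27 (0.755). Without YSGr male 8, Col11a2 was at 0.23 (adjusted p = 0.516) and Col24a1 did not pass the filter. The bone and cartilage markers, most of whose sum is Sox9, were 109.99 to 131.04 CPM in SG and 72.67 to 97.93 CPM in YSGr, with Sox9 and Alpl lower and Dmp1 higher of 5 tested. The cartilage markers Matn1 and Comp and the bone marker Sp7 did not pass the filter, and Ibsp and Bglap were absent from the deposited table. The sum therefore mainly follows Sox9 and does not show a change in bone or cartilage cells. The part of these markers in the results was not tested.

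FACIT collagens moved in both directions. Col9a3, a chain of type IX collagen, had the highest level per kilobase of any member in YSGr (12.7 CPM per kilobase) and was second to Col4a1 in SG. It was at 5.88, 6.32 and 5.98 log2 CPM in SG males, 5.89, 6.03 and 5.88 in SG females, 5.05, 5.02 and 5.09 in YSGr males and 5.48, 5.56 and 5.42 in YSGr females. The genotypes did not overlap, and the YSGr males were lower than the YSGr females. Col9a3 fell by 0.73 on the log2 scale (SE 0.096, limma adjusted p = 0.000598). Its partner Col9a1 had a level of 0.447 CPM per kilobase in SG and was at 0.40 to 1.26 log2 CPM in SG and -0.45 to 0.43 in YSGr, with 5 to 20 estimated reads per library. Col9a1 fell by 0.91 (SE 0.22, limma adjusted p = 0.0196), a call lost without SG male 1, SG female 4 or SG female 5 (adjusted p 0.0507 to 0.0635). The third type IX chain, Col9a2, was at 3.49 to 4.09 log2 CPM in SG and 2.71 to 3.81 in YSGr, with a log2 fold change of -0.51 (95% interval -0.92 to -0.10, adjusted p = 0.0967).

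Col20a1 was at 1.25, 0.62 and 0.75 log2 CPM in SG males, 0.51, 0.12 and 0.26 in SG females, 2.11, 2.81 and 1.43 in YSGr males and 2.88, 2.23 and 0.82 in YSGr females. All YSGr libraries but YSGr female 12 exceeded every SG library. It rose by 1.46 (SE 0.34, limma adjusted p = 0.0159), and had 8 to 68 estimated reads per library. With SG male 2 and YSGr male 8 both left out the value was 1.23 (adjusted p = 0.0524). Col12a1, a FACIT of dense connective tissue, was at 3.71 to 4.71 log2 CPM in SG and 4.28 to 5.65 in YSGr, with a positive value of 0.60 (adjusted p = 0.0641). It passed the threshold without SG male 1 (0.04996), YSGr male 7 (0.0319) or YSGr female 12 (0.0468). The value of Col12a1 was 0.56 without YSGr male 8 (adjusted p = 0.124). It was 0.39 without that library and SG male 2 (adjusted p = 0.135). Col22a1 had a value of -0.82 (adjusted p = 0.118), Col16a1 one of 0.24 (0.686) and Col19a1 one of 0.28 (0.698). Without YSGr male 8 these were -1.005 (adjusted p = 0.0630), -0.04 (0.95) and 0.05 (0.954). Without that library and SG male 2, Col19a1 was at -0.26 (adjusted p = 0.657).

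Col26a1 and Col28a1 fell as well. Col26a1 was at 2.63, 3.28 and 2.86 log2 CPM in SG males, 2.72, 3.21 and 2.91 in SG females, 1.15, 1.52 and -0.46 in YSGr males and 0.07, 0.74 and 0.91 in YSGr females. It had the most negative averaged value of any member, -2.28 (SE 0.31, limma adjusted p = 0.000732), and no overlap between genotypes. Estimated reads of Col26a1 summed to 424 in SG and 87 in YSGr. Col28a1 was at 3.13, 2.15 and 3.26 log2 CPM in SG males, 2.72, 3.31 and 3.49 in SG females, 1.39, -0.07 and 2.22 in YSGr males and 1.27, 1.78 and 2.18 in YSGr females. The genotypes overlapped only through SG male 2, the lowest SG library. Col28a1 fell by 1.55 (SE 0.35, limma adjusted p = 0.0147), and without YSGr male 8, its lowest library, by 1.24 (adjusted p = 0.0148).

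The type VI chains, which assemble into beaded filaments, had values of -0.26 for Col6a1 (adjusted p = 0.452), -0.74 for Col6a2 (0.0898) and -1.003 for Col6a3 (0.116). Without YSGr male 8, Col6a2 was at -0.96 (adjusted p = 0.0159) and Col6a3 at -1.32 (0.0291). In YSGr male 8 Col6a3 was at 3.22 log2 CPM, against 0.43 to 2.27 in the other YSGr libraries. Col7a1, the anchoring fibril collagen of skin, had a value of -1.28 (adjusted p = 0.0544), and of -1.56 without YSGr male 7 (0.0203). The transmembrane collagens Col13a1, Col17a1, Col23a1 and Col25a1 had values of -0.70, 0.92, 0.61 and 0.47, none past the threshold, though Col17a1 and Col23a1 passed it without YSGr female 12 (adjusted p = 0.0270 and 0.0320). Col25a1 was at 4.87 log2 CPM in YSGr male 8 and at -1.22 to 0.61 in the other libraries, and its value without YSGr male 8 was -0.45 (adjusted p = 0.522). The network formers Col8a1 and Col8a2 had values of 0.40 (95% interval -0.68 to 1.48) and -0.29 (-1.16 to 0.58). With YSGr male 8 and SG male 2 left out, Col8a1 was at 0.05 (adjusted p = 0.965).

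The question of the sexes was asked within each genotype and by setting the effect in females against that in males. In females, 12 collagens fell and 0 rose in limma (3 higher at an unadjusted p under 0.05, as were 7.37% of all genes), where 1.87% of all genes fell and 1.15% rose. In males, 7 collagens fell and 0 rose (2 higher at an unadjusted p under 0.05, as were 14.7% of all genes), where 3.42% of all genes fell and 4.43% rose. The median over the 39 was -1.05 in females, against 0.01 over all genes, and -0.19 in males, against -0.01. Col3a1, Col4a1, Col4a2, Col5a2, Col18a1 and Col26a1 fell in both sexes. Col1a2, Col4a4, Col4a5, Col5a1, Col9a1 and Col15a1 were called in females and not in males, and Col9a3 in males and not in females. The female and male comparisons share no library, and both enter the averaged one.

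Col4a1 and Col4a2 fell by more than 1 on the log2 scale in both sexes. Col4a1 fell by 1.80 in females (SE 0.15, limma adjusted p = 9.733e-05) and by 1.63 in males (SE 0.15, adjusted p = 0.000189). Col4a2 fell by 1.60 in females and 1.34 in males. Col18a1 fell by 1.22 in females and 0.90 in males, and Col26a1 by 2.38 and 2.19. For Col3a1 the values were -2.09 in females (adjusted p = 0.0023) and -1.16 in males (0.0334), and for Col5a2 they were -2.67 and -1.79. Of the type I chains, Col1a1 was at -1.97 in females (adjusted p = 0.0910) and -0.05 in males, and Col1a2 fell by 1.53 in females (adjusted p = 0.0387) and was at 0.28 in males. Mean CPM of Col1a1 was 3.57 times as high in SG as in YSGr in females and 0.77 times in males, and without YSGr male 8 its male value was -0.81 (adjusted p = 0.321). Without that library the male value of Col1a2 was -0.17 (adjusted p = 0.758), and the female minus male differences were -1.16 for Col1a1 and -1.36 for Col1a2, from -1.91 and -1.82 with it.

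In the test of the difference itself, 0 of 39 collagens passed the threshold in limma, and 0.00707% of all genes passed. At an unadjusted p under 0.05 there were 9 collagens, and 11.6% of all genes. The female effect was the more negative in 31 of 39 collagens and in 7010 of 14147 genes, and the median difference was -0.57 over the collagens and 0.005 over all genes. Mean CPM of Yap1 was 23.96 times as high in SG as in YSGr in females and 7.93 times in males. These ratios rest on few YSGr reads (9, 12 and 7 in females, 33, 29 and 14 in males), and are given without a test. Markers of cell types also differed between the YSGr sexes. The 8 astrocyte markers summed to 2839 to 3523 CPM in YSGr males and 1444 to 2848 CPM in YSGr females. The granule neuron progenitor markers summed to 3980 to 5800 CPM and 6038 to 6591 CPM. The part of remaining Yap1 or of these cells in the differences between the sexes was not tested. Col1a2 had the smallest p among the collagens, with a difference of -1.82 (SE 0.51, unadjusted p = 0.00354, adjusted p = 0.429). It was followed by Col4a4 at -1.41 (SE 0.43, unadjusted p = 0.00627, adjusted p = 0.429). With libraries weighted by their scatter, 8 collagens and 4.77% of all genes passed. In that run YSGr female 10 (weight 3.331) far outweighed YSGr female 11 (0.27) and YSGr female 12 (0.417). The sexes were therefore not shown to differ in any single collagen at equal weights.

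Calls in females depended on single libraries. The count of 12 became 7 without SG female 4 and 5 without SG female 5, SG female 6 or YSGr female 10. The share of all genes called in females fell too, from 3.01% to 1.18% without SG female 4 and to 0.68%, 0.665% and 0.964% without the other 3. Col3a1, Col4a1, Col4a2, Col5a2 and Col18a1 stayed past the threshold in every alternative run. Col15a1 and Col26a1 lost their calls without SG female 5, SG female 6 or YSGr female 10 (adjusted p 0.0854 to 0.0961 and 0.0652 to 0.0782). Col4a4 and Col4a5 lost theirs without any of the 3 SG females, YSGr female 10 or YSGr female 12 (0.0747 to 0.126 and 0.0583 to 0.118). Col5a1 lost its call without any of the 3 SG females, YSGr female 10 or YSGr female 11 (0.0653 to 0.170). Col1a2 lost its call without any of 8 libraries, namely SG males 1 and 3, the 3 SG females, YSGr male 7 and YSGr females 10 and 12 (0.0532 to 0.163), and Col9a1 without any of those 8 or YSGr female 11 (0.0504 to 0.186). Col1a1 was called in females without YSGr male 8 (0.0172) or YSGr female 11 (0.0373). In males, Col3a1 lost its call without any of 7 libraries, which were SG males 2 and 3, the 3 SG females and YSGr males 8 and 9 (0.0517 to 0.101), and Col26a1 without SG male 2 (0.0628). A library of the other sex can matter because all 12 share 1 estimate of the spread.

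Between females and males of the same genotype, 0 collagens passed in limma in SG, where 0.0353% of all genes passed. At an unadjusted p under 0.05 there were 3 collagens, and 1.83% of all genes. Those 3, all higher in females, were Col4a1 (0.43, SE 0.15), Col4a2 (0.41, SE 0.16) and Col4a5 (0.59, SE 0.27), each with an adjusted p of 0.982. In YSGr, 0 collagens passed in limma, where 0.0778% of all genes passed. At an unadjusted p under 0.05 there were 13 collagens, and 18.1% of all genes. Of the 13, 10 were lower in females, as were 1503 of the 2566 genes of the whole table at that threshold. Among the 10 were Col1a2, lower by 1.502 (SE 0.36, adjusted p = 0.142), and Col1a1, lower by 1.84 (SE 0.57, adjusted p = 0.156). Without YSGr female 11, Col1a1, Col1a2, Col3a1, Col4a4 and Col5a2 passed the threshold in this comparison (adjusted p = 0.0299, 0.0125, 0.0356, 0.0463 and 0.0376), as did 7.28% of all genes.

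**Figure D3:**
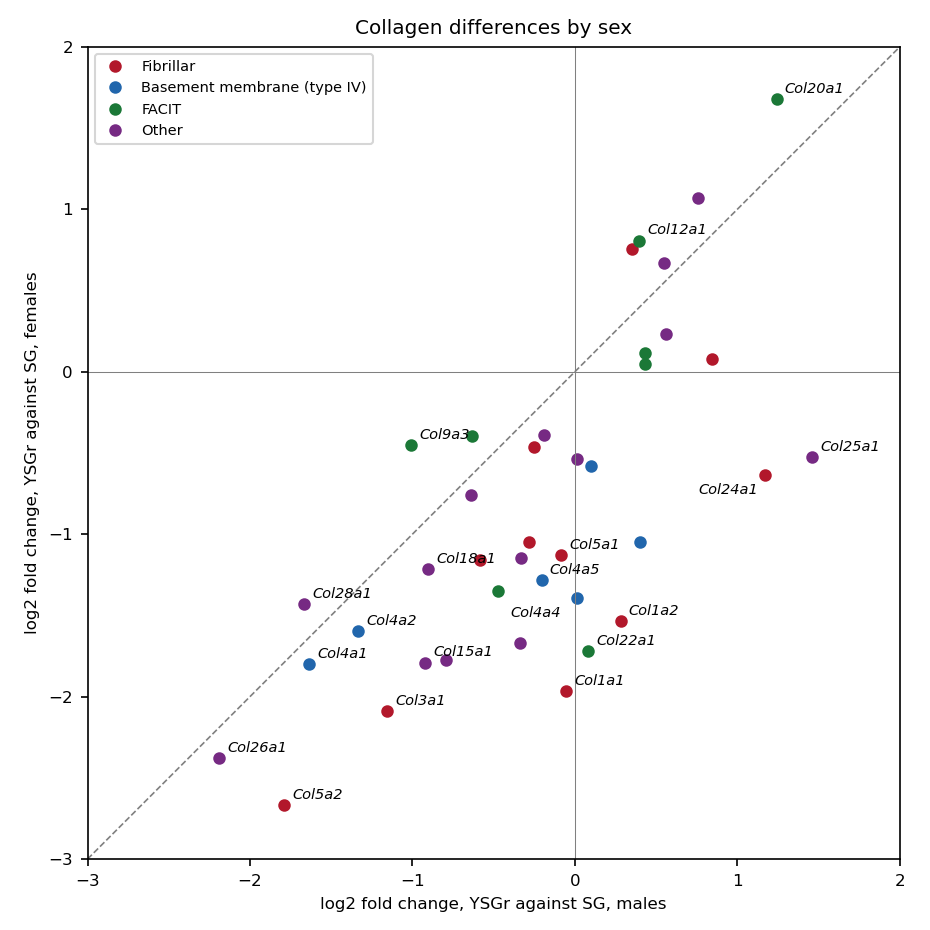
Log2 fold change of each collagen gene, YSGr against SG, in males (horizontal axis) and females (vertical axis), with the dashed line marking equal values. Of the 39 points, 31 lie below the line, 22 have negative values in both sexes and 9 have positive values in both.

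Summed over the members, collagen transcripts made up 149 to 194 CPM per kilobase in the SG libraries and 71.8 to 116 CPM per kilobase in the YSGr libraries, with YSGr male 8 the highest of the latter. The genotypes did not overlap. The basement membrane sum was 43.7 to 74.7 CPM per kilobase in SG and 17.0 to 21.5 in YSGr, a gap wider than the range within YSGr. The fibrillar sum was 36.2 to 47.5 CPM per kilobase in SG and 15.5 to 43.8 in YSGr, and without YSGr male 8 the YSGr libraries reached 26.8. As shares of the collagen sum, basement membrane genes had a median of 33.3% in SG and 22.4% in YSGr, and FACIT genes 18.2% and 27.5%. The fibrillar share was 23.7 to 25.2% in SG and 18.1 to 37.7% in YSGr. These sums are weighted towards the few genes with high levels, and a share can rise because another class fell.

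**Figure D4:**
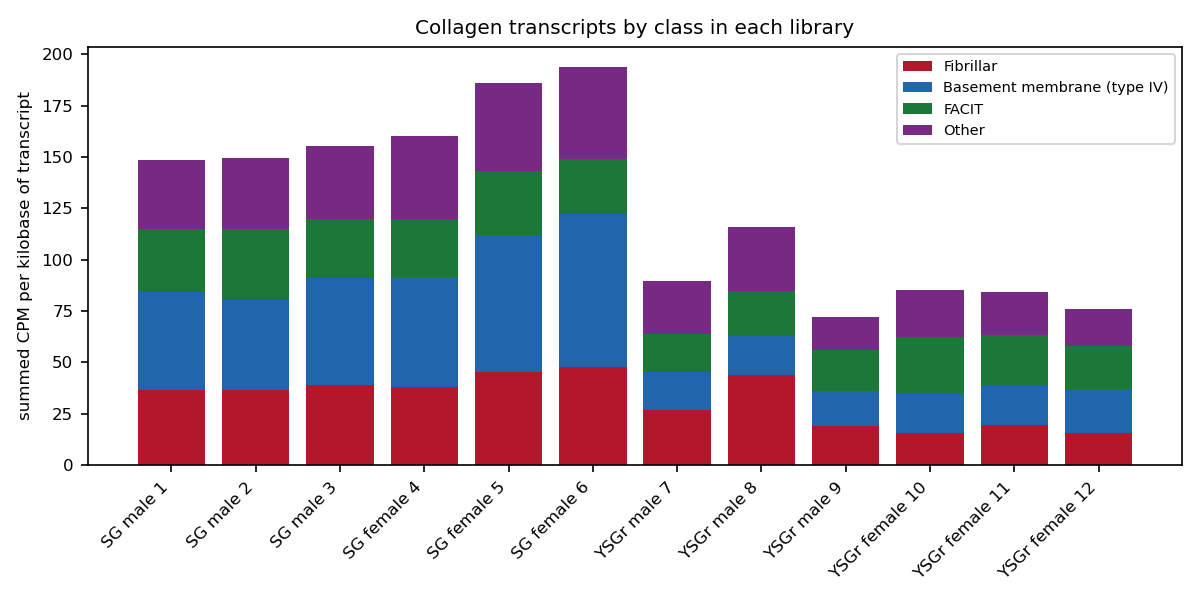
Collagen transcripts in each library as summed CPM per kilobase of longest transcript, stacked by class. SG bars reach 149 to 194 and YSGr bars 71.8 to 116, and the fibrillar part of YSGr male 8 (43.8) is as tall as in SG libraries.

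Chains that assemble into the same molecule did not all move together. Per kilobase, Col4a1 stood to Col4a2 in a ratio of 2.13 to 2.38 in SG and 1.39 to 2.19 in YSGr, with YSGr male 8 at 1.39. Every YSGr library but YSGr female 12 (2.19) lay below the lowest SG library in this ratio. The ratio of Col1a1 to Col1a2 was 0.565 to 1.041 in SG and 0.376 to 0.991 in YSGr. By contrast, Col5a1 to Col5a2 was 0.122 to 0.177 in SG and 0.215 to 0.745 in YSGr, without overlap. Col3a1 to Col1a2, chains of different collagens that share fibrils, was 1.79 to 2.37 in SG and 0.412 to 1.621 in YSGr, also without overlap. In the order of levels per kilobase, Col5a2 moved from place 6 in SG to place 16 in YSGr and Col26a1 from 14 to 27, while Col4a1, Col9a3, Col18a1 and Col4a2 held the top 4 places in both.

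The YSGr libraries varied more in collagen than the SG libraries. The SD over the 3 libraries of a sex, pooled over the sexes, had a median over the collagens of 0.306 log2 units in SG and 0.636 in YSGr, against 0.241 and 0.254 over all genes tested. It was wider in YSGr for 31 of 39 collagens (79.5%) and for 58.7% of all genes. Within SG, SG male 2 was the lowest library for 20 of 39 collagens and SG female 6 the highest for 15. Within YSGr, YSGr male 8 was the highest for 16 and YSGr male 9 the lowest for 12.

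The genes that make, export and organise collagen were examined as lists in the averaged comparison, in which 5.27% of all genes fell and 6.16% rose. Of 15 hydroxylases, glycosyltransferases and their partners, 2 fell, the prolyl hydroxylase complex members P3h4 (by 0.68, limma adjusted p = 0.0154) and Crtap (by 0.67, adjusted p = 0.0188). P3h4 lost its call without SG female 5 (0.0505), and Crtap without SG female 5 or SG female 6. Of 7 chaperone and export genes, the procollagen chaperone Fkbp10 fell by 1.11 (adjusted p = 0.00143) in every alternative run. Serpinh1, which encodes the collagen chaperone HSP47, fell by 0.63 (adjusted p = 0.0373), a call lost in 12 of 20 alternatives. The medians of these lists were -0.21 and 0.04, against -0.01 over all genes. Of 7 procollagen proteases and their enhancers tested, Adamts14 fell by 0.67 (adjusted p = 0.0260), a call lost in 6 of 20 alternatives, and the median was -0.03.

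Among the 4 crosslinking oxidases tested, Loxl1 fell from 7.10 to 7.85 log2 CPM in SG to 3.87 to 5.34 in YSGr, a change of -2.52 (SE 0.19, limma adjusted p = 1.325e-05), and kept its call in every alternative run. Lox itself had an averaged value of 0.74 (adjusted p = 0.0895). It rose by 1.63 in males (adjusted p = 0.0265) and had a value of -0.15 in females (adjusted p = 0.930), and the difference between the sexes did not pass the threshold (-1.78, adjusted p = 0.429). Of 8 collagen receptors tested, 2 fell and 0 rose, beside the same 5.27% and 6.16% of all genes: the integrin subunit Itgb1 by 0.45 (adjusted p = 0.0132) and the adhesion receptor Adgrg1 by 0.30 (adjusted p = 0.0376), the second lost in 9 of 20 alternatives. Of the 9 fibril organisers, 4 fell and 2 rose. The small proteoglycan Fmod fell by 2.33 (adjusted p = 0.000213) and Bgn by 0.84 (adjusted p = 0.00619), while Dcn rose by 0.97 (adjusted p = 0.00265) and Tgfbi by 1.72 (adjusted p = 0.00042), and these 4 calls held in every alternative run. Postn fell by 0.81 (adjusted p = 0.0415, lost in 8 of 20 alternatives) and Fn1 by 0.56 (adjusted p = 0.0498, lost in 15 of 20). Proteoglycans that bind fibrils thus moved in both directions.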

How the data were processed

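The authors deposited 1 table of log2 CPM, with 15672 genes and 12 libraries of total RNA, sequenced on BGISEQ-500 per the labels. The submitters' processing notes name Trimmomatic 0.33, RSEM 1.2.12, Bowtie2, Picard 1.95, edgeR 3.30.3 and mm10. The role of each tool, the annotation and the strand setting were not given in the sources used here. The lowest value, -2.24 in every library, comes from a prior added to each gene. Taking it off gave CPM and estimated reads, whole within 0.02 reads for 92.2 to 93.8% of low values per library. A floor of 3 reads is 0.301 to 0.333 CPM, and covers counting error only. Identical libraries were not found (0 pairs), and 0 columns were unmapped.

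limma 3.58.1 in R 4.3.3 (statmod 1.5.0 for the weighted alternative) was fitted to the deposited values of all genes above 0 in at least 3 libraries, with 1 coefficient per group, a mean-variance trend, two-sided tests and Benjamini-Hochberg adjustment at 0.05 over all genes tested, for 6 comparisons. Fold changes include the prior and understate low genes. The fit was tested on simulated data. No library number is shared between groups, so nothing was paired. Alternatives were other filters, a prior 0.25 times the deposited one, no trend, library weights, median centring, sex left out, each library left out and, chosen after seeing the data, SG male 2 and YSGr male 8 both left out. The members and lists were chosen with earlier results of these data known. Members named in full were those past the threshold in any comparison, the type I, III and main type IV chains, the highest of each class and the head-to-head type IV chains, and from other lists those past the threshold in the averaged comparison. Tables were handled in Python 3.11.15.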

Additional observations from a re-analysis of the deposited data

Results flagged for a closer look

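In groups of 6 libraries of a genotype, 78 groups of collagen values were examined for a library whose gap to the nearest of the others exceeded Dixon's 95% critical value for 6 libraries, as a share of the whole range. In 9 a library stood apart, and chance flags about 1 in 20 groups. SG male 2 accounted for 6 of the 9. It was the lowest SG library for Col4a4 at 0.91 log2 CPM (nearest 1.71), for Col4a5 at 3.00 (nearest 4.12), for Col6a3 at 1.47 (nearest 2.67), for Col12a1 at 3.71 (nearest 4.44) and for Col27a1 at 2.95 (nearest 3.48). It was the highest SG library for Col9a3 at 6.32 (nearest 6.03). SG female 6 was high for Col6a1 at 4.51 (nearest 4.13), and YSGr female 10 for Col23a1 at 4.65 (nearest 3.62). The widest gap was that of Col25a1, a transmembrane collagen, at 4.87 log2 CPM in YSGr male 8 and at most -0.26 in the other YSGr libraries.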

How the results depend on the processing

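None of the collagen calls changed direction in any alternative (0 reversed). Of the averaged calls, 9 of 14 held in all 20 alternatives (Col3a1, Col4a1, Col4a2, Col5a2, Col9a3, Col15a1, Col18a1, Col26a1 and Col28a1), of the female calls 5 of 12 and of the male calls 4 of 7 (Col4a1, Col4a2, Col9a3 and Col18a1) in all 19. Library weights raised the counts of collagens called to 28 averaged, 27 in females, 11 in males, 8 for the difference between the sexes and 12 for females against males in YSGr, and the shares of all genes called to 35.2%, 31.7%, 16.4%, 4.77% and 12.9%. The cause was not tested, and the weights were low for SG male 2 (0.102), YSGr female 11 (0.27) and YSGr male 8 (0.276). YSGr female 10 had the highest weight (3.331), against 0.417 for YSGr female 12. The weighted values of the YSGr females thus rest mainly on YSGr female 10. Without both SG male 2 and YSGr male 8, an alternative added after seeing the data, the counts were 17 averaged, 20 in females and 5 in males, with 13.8%, 9.04% and 1.75% of all genes. Leaving out each library in turn gave 10 to 17 averaged calls, 5 to 17 in females, 5 to 7 in males, 0 to 0 for the difference and for the sexes within SG, and 0 to 5 for the sexes within YSGr. The shares of all genes ranged over 6.37 to 14.8%, 0.665 to 5.56% and 2.03 to 11.8% for the averaged, female and male comparisons. They ranged over 0.00708 to 0.845% for the difference, 0.0354 to 0.0356% for the sexes within SG and 0.0637 to 7.28% for the sexes within YSGr. A group left with 2 libraries takes its spread from the others too. No paired analysis was possible because no library number is shared between groups. The precision is limited by 3 libraries a group and by depth, with 5 to 20 estimated reads per library for Col9a1.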
